A study of Homo sapiens with 12 samples.

Results

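JIMT1 cells are a line of HER2-positive ductal breast cancer that lacks both hormone receptors and is resistant to the HER2 antibody trastuzumab. Here its gene expression after 7 days on polyHEMA (PH7d) was set against that after 4 days (PH4d), within each of 2 biological replicates. PolyHEMA is a plate coating to which cells cannot attach, so that they grow as floating aggregates. The members were 4 of the 12 arrays of the series, chosen by their culture labels, namely replicate 1 of PH4d and PH7d and replicate 2 of PH4d and PH7d. All 4 cultures were the same untreated line in the same medium with serum and insulin, and the other 8 arrays were JIMT1 as a monolayer for 7 days (2D7d), in Matrigel for 4 and 7 days (MG4d and MG7d), and as 43-day xenografts in nude mice, with 2 arrays in each group. Each array measured 47323 probes. The labels number the replicates but do not say that cultures of the same number were set up together. The pairing rests on the data, since the difference between replicate 2 and replicate 1 was correlated between PH4d and PH7d across the 10970 genes tested (Pearson r 0.87, a description across genes, which are not independent).

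The 4 arrays were of like brightness. Their median bead intensities lay between 95.07 and 105.1, and they detected 14530 to 18430 probes at a detection p under 0.01, more on the replicate 1 arrays (18430 and 17739) than on the replicate 2 arrays (14530 and 15093). All 7 epithelial and HER2 markers checked (KRT8, KRT18, KRT19, EPCAM, CDH1, ERBB2 and GRB7) were detected on all 4 arrays. PGR, the progesterone receptor, was detected on 0 of them, whereas the probe of ESR1, the estrogen receptor, was detected on all 4 at a mean log2 level of 7.45. Of the markers of other cells, PTPRC and CD3E of leukocytes, VWF of endothelium, HBB and HBA2 of erythroid cells and COL3A1 and PDGFRB of fibroblasts were detected on 0 arrays, whereas PECAM1 and COL1A1 were detected on all 4, CDH5 on 2 and COL1A2 on 1. In bulk RNA, a change in the number of cells in a state and a change in RNA per cell cannot be told apart.

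Epithelial cells under inflammatory signals secrete acute phase and antimicrobial proteins. Serum amyloid A proteins carry lipids, and SAA1 is an acute phase protein. S100A8 and S100A9 form calprotectin, which withholds metal ions from microbes. Lipocalin 2 (LCN2) binds the siderophores with which bacteria take up iron. Many of these genes are controlled by NF-kB and C/EBP transcription factors. Metallothioneins are small cysteine-rich proteins that bind zinc and copper, and MTF1 drives their genes through metal response elements.

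The 250 bases before the annotated start are shown for 5 genes that the results turn on and that held a match. They come from RefSeq (build GRCh38.p14), with motif matches on either strand in capitals. For MT1X (chr16:56682220-56682469, plus strand) and MT2A (chr16:56608334-56608583, plus strand), the capitals mark the metal response element core, searched as TGCACNC or TGCGCNC.
MT1X: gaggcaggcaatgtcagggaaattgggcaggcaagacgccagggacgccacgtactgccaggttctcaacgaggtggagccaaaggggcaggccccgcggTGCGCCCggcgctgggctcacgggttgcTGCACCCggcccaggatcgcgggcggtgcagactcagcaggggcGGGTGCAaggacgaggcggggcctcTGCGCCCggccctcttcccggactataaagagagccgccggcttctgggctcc
MT2A: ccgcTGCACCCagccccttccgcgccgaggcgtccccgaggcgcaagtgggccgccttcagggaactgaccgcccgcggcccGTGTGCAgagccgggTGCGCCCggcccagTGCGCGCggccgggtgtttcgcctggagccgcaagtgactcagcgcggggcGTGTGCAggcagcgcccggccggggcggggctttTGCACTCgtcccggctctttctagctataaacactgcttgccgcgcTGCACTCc
MT1X held 4 matches, the nearest beginning 53 bases before the start, and MT2A held 7. Of 35116 RefSeq promoters of this length, 24.8% held a match and 1.58% held 3 or more.

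For SAA4 (chr11:18236803-18237052, minus strand), LCN2 (chr9:128149203-128149452, plus strand) and CXCL8 (chr4:73740319-73740568, plus strand), which encodes the neutrophil chemokine interleukin 8, the capitals mark NF-kB type motifs, searched as GGNNNTTCC, and C/EBP type motifs, searched as TTGCNNAA.
SAA4: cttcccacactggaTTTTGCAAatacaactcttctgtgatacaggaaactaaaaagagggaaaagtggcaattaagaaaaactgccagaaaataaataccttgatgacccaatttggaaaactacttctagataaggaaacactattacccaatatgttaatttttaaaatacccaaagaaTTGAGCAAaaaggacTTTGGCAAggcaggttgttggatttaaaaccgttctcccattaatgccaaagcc
LCN2: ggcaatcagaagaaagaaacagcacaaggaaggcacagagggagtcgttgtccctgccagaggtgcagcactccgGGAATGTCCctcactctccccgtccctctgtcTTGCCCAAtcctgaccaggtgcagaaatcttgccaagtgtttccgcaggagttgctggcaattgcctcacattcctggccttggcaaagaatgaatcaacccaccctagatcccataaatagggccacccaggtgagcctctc
CXCL8: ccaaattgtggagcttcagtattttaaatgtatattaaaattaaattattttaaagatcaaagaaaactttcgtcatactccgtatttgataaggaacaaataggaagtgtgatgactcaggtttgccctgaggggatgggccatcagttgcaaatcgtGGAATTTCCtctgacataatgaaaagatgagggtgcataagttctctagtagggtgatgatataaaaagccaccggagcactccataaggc
SAA4 held 3 C/EBP type matches, LCN2 held 1 of each kind and CXCL8 held 1 NF-kB type match, 91 bases before the start. CXCL8 also held 1 match to the metal response element, not marked. Of the promoters looked up and not shown, those of S100A8 and S100A9 held 0 matches to any of the 3 motifs, and that of complement factor B held 1 to the NF-kB type motif. Matches were found in 17.1% of promoters for the NF-kB type motif and in 9.05% for the C/EBP type motif (3 or more in 0.0541%). Marked matches did not overlap each other, and 8 of 16 genes looked up had an entry. A match is a string of letters and not evidence of binding. Sites that differ from the strings searched go unmarked, so that a lack of matches is not evidence of a lack of sites.

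In limma with the replicate as a term, 11 of 10970 genes (0.100%) passed the test of PH7d against PH4d at a Benjamini-Hochberg adjusted p under 0.05 and at least 2-fold, of which 8 were higher on day 7 (0.0729%) and 3 were lower (0.0273%). Of the 8, 3 were acute phase or antimicrobial genes (S100A8, LCN2 and SAA1). SAA4, a relative of SAA1, was not counted among them. A gene was tested where both arrays of any group detected it, and 6 of the 8 (SAA1, SAA4, PTPN20, OR4K15, TMEM45B and DLX5) entered through PH7d alone, as did 85 of all genes tested (0.775%). For these 6 the filter favours a higher day 7, and the count of 8 is no evidence of a direction. With only genes detected on all 4 polyHEMA arrays, 0 were called in limma (677 at an unadjusted p under 0.05), S100A8 and LCN2 among those tested. The calls rested on the pairing, since 0 genes passed without the replicate term in limma, where 125 had an unadjusted p under 0.05. The difference was larger in replicate 1 for S100A8, LCN2, SAA1, SAA4, PTPN20, CASP14 and OLFML2A. It was larger in replicate 2 for OR4K15, TMEM45B, DLX5 and SLC1A6. With 2 pairs, 1 of the 5 residual degrees of freedom came from polyHEMA, and the other 4 came from the other groups, whose replicates were not paired. With a second replicate term for Matrigel 6 of the 11 were called and no others, and with one shared by the other 4 groups 7 and no others, both terms tried after the data had been seen.

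Across genes the pairs had little in common. The log2 difference of day 7 from day 4 had an SD of 0.44 in pair 1 (the replicate 1 arrays) and 0.31 in pair 2 (the replicate 2 arrays), and the correlation between them was 0.02. Day 7 was higher in both pairs for 27.4% of genes and lower in both for 22.9%, while the pairs ran opposite ways for 49.7%. The mean of the pairs was at least 2-fold from 0 for 45 genes (0.410%), and 886 genes (8.08%) had an unadjusted p under 0.05. Differences were larger in pair 1, with 318 genes at least 2-fold apart (2.90%) against 124 in pair 2 (1.13%). At least 1.5-fold in the same direction in both pairs, 40 genes were higher (0.365%) and 49 were lower (0.447%). The residual spread per array within the polyHEMA pairs was 0.27 on the log2 scale. It lay above that between replicates of MG4d (0.19), MG7d (0.20) and the xenografts (0.18) and below that of 2D7d (0.28). Fitted array weights, lower where the spread is larger, were 0.76 for polyHEMA and 1.15 for the other groups.

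**Figure D1:**
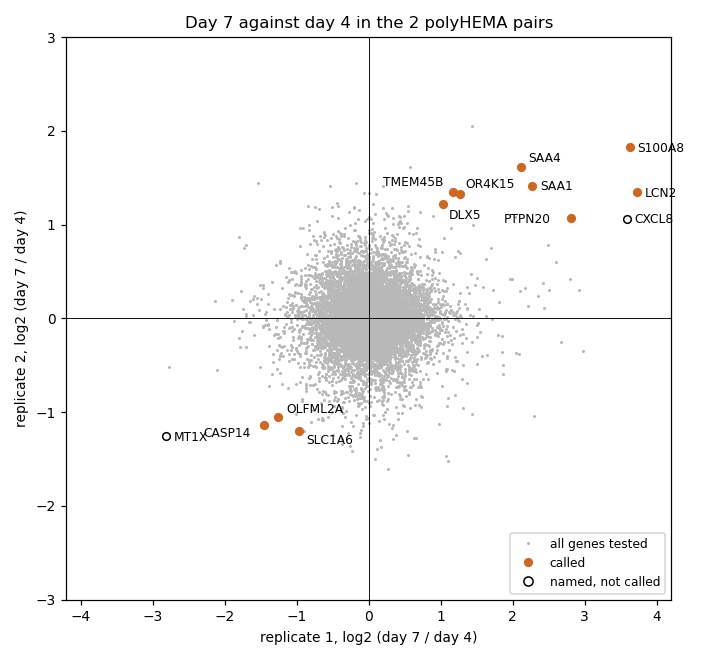
Each point is a gene, placed by its log2 difference of PH7d from PH4d in replicate 1 (x axis) and replicate 2 (y axis). The cloud of 10970 genes has no slope (r 0.02), and the 11 called genes (orange) lie at its corners where both pairs run the same way.

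S100A8 had the largest mean difference of the 11. Its log2 level was 8.57 on day 4 and 12.20 on day 7 in pair 1, and 9.53 and 11.36 in pair 2, and both day 7 arrays lay above both day 4 arrays. The mean log2 difference was 2.73 ± 0.36 (12.4-fold in pair 1 and 3.55-fold in pair 2; adjusted p = 0.0190 in limma). Here and below, ± gives the moderated SE of the limma fit over all 12 arrays. It does not measure the spread between the 2 pairs, which can be wider. LCN2 went from 10.33 to 14.06 in pair 1 and from 12.58 to 13.93 in pair 2. Its day 7 arrays were nearly level while its day 4 arrays lay far apart, and the mean log2 difference was 2.54 ± 0.39 (adjusted p = 0.0448 in limma).

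SAA1 went from 5.12, not detected, to 7.40 in pair 1 and from 6.56 to 7.97 in pair 2 (mean log2 difference 1.85 ± 0.23, adjusted p = 0.0176 in limma). Its transcript is nearly identical to that of SAA2, and signal of the 2 may be shared. Over the other models, normalizations and filters with the pairing kept, the SAA1 difference ranged from 0.65 to 2.00 on the log2 scale. SAA4 went from 4.86 to 6.97 and from 5.54 to 7.16 and was detected on day 7 only, on both arrays, which gives it a rise of at least 2.45-fold (mean log2 difference 1.86 ± 0.17, adjusted p = 0.00207 in limma). Without background correction the SAA4 difference was 0.95 on the log2 scale, and in the authors' processed values 0.52. Its day 4 arrays lay at the background.

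Other members of the same list had differences of the same sign without passing the test. S100A9, the partner of S100A8, was already bright, at 12.30 and 13.07 on day 4, and reached 13.44 and 14.03 on day 7 (mean log2 difference 1.05 ± 0.20, adjusted p = 0.124 in limma). The complement component C3 had differences of 1.70 and 0.75 in the 2 pairs, complement factor B (CFB) 2.80 and 0.42, and the elastase inhibitor PI3 (elafin) 2.60 and 0.61. Each was thus larger in pair 1. Of the 9 members measured of 20 listed, 3 passed the test as higher (0.0729% of all genes), one of them, SAA1, having entered through PH7d alone, 7 were higher on day 7 in both pairs (27.4% of all genes), and SLPI was lower in both, by 0.17 and 0.27 on the log2 scale. The median log2 difference over the 9 was 2.27 in pair 1 and 0.75 in pair 2, against 0.03 and 0.01 over all genes tested, and over the 6 other normalizations and filters it stayed between 0.99 and 2.60 and between 0.49 and 0.93. The list was drawn up with earlier results of these arrays known, so its direction is no independent evidence.

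**Figure D2:**
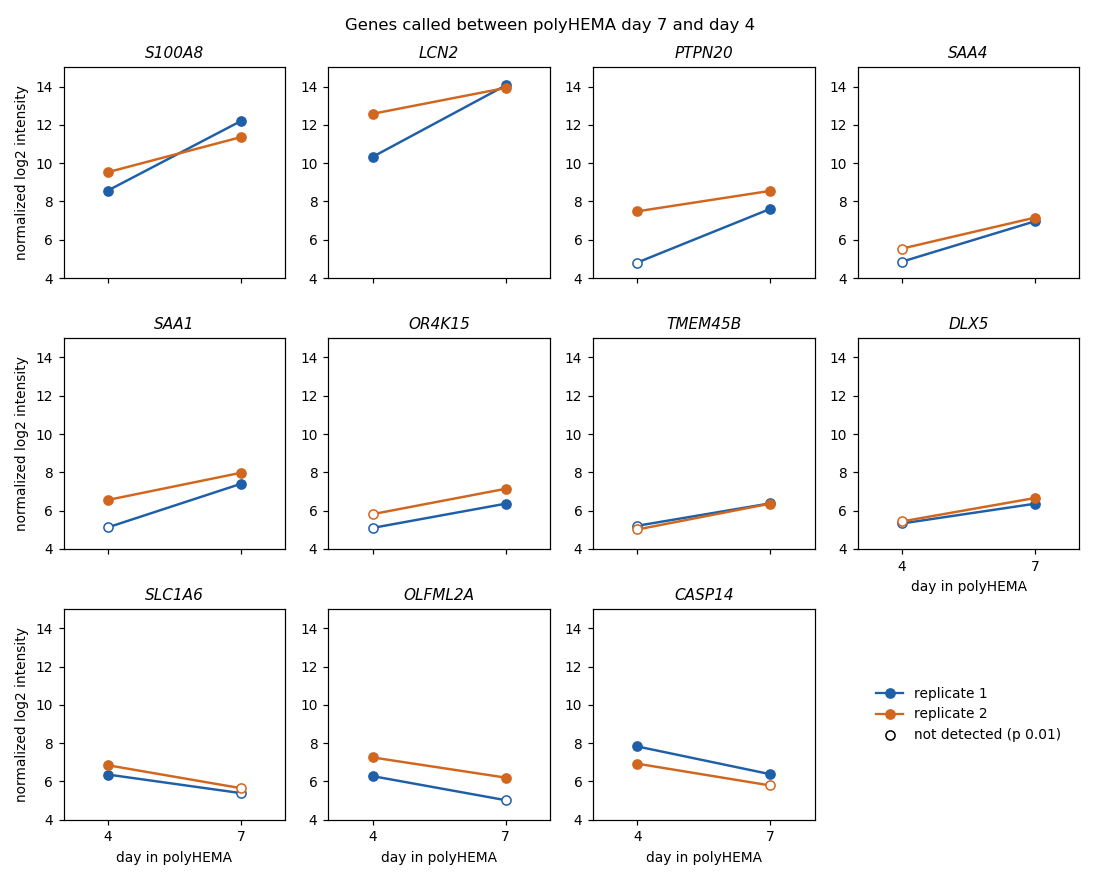
Normalized log2 intensity (y axis) on day 4 and day 7 (x axis) for the 11 called genes, with a line for each replicate and open symbols where the probe was not detected at a detection p of 0.01. The lines of a gene run the same way, and in S100A8 and LCN2 the replicate 1 line is the steeper one (3.63 against 1.83 and 3.73 against 1.35).

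The other 4 genes that were higher had no role in common. PTPN20, a protein tyrosine phosphatase, went from 4.81, not detected, to 7.62 in pair 1 and from 7.49 to 8.56 in pair 2 (mean log2 difference 1.94 ± 0.30, adjusted p = 0.0448 in limma). Over the other models, normalizations and filters with the pairing kept, its difference ranged from 0.73 to 2.14. OR4K15, an olfactory receptor gene, had differences of 1.26 and 1.32, TMEM45B, a transmembrane protein, 1.17 and 1.35, and DLX5, a homeobox transcription factor, 1.03 and 1.22. These last 3 were not detected on day 4 and were dim on day 7, at most 7.14, so that their rises have lower bounds of 1.97-fold, 1.52-fold and 1.67-fold, under the 2-fold limit. In the authors' processed values OR4K15, TMEM45B and DLX5 differed by 0.35, 0.29 and 0.28 on the log2 scale.

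The remaining 3 genes were lower. CASP14, the caspase of cornifying epidermis, fell from 7.83 to 6.38 in pair 1 and from 6.93 to 5.79 in pair 2 (mean log2 difference -1.29 ± 0.18, adjusted p = 0.0252 in limma). OLFML2A, an extracellular matrix protein of the olfactomedin family, had differences of -1.26 and -1.05. SLC1A6, a glutamate transporter, had differences of -0.97 and -1.20 and was not detected on day 7, a fall of at least 1.82-fold. Each of the 3 was not detected on at least 1 of the 2 day 7 arrays. In the authors' processed values CASP14 differed by -0.47, OLFML2A by -0.33 and SLC1A6 by -0.28.

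Of 11 calls, S100A8 stood under 7 of 10 other models, normalizations and filters tried with the pairing kept (the second replicate terms aside). LCN2 stood under 5 of 10. SAA4 stood under 7 of 9, SLC1A6 under 1 of 9 and the rest under 3 to 6 of 9. Those with 9 were not among the genes tested where all 4 polyHEMA arrays had to detect the probe. SAA4 was the only gene called once the polyHEMA arrays were given a variance weight of their own, and S100A8 the only one in the authors' processed values.

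Among NF-kB targets and cytokines, none of the 22 members measured passed the test. CXCL8 came nearest, at 6.73 on day 4 and 10.31 on day 7 in pair 1 and at 6.94 and 8.01 in pair 2 (mean log2 difference 2.32 ± 0.44, adjusted p = 0.135 in limma). All 4 arrays detected it and both day 7 arrays were the higher ones. CXCL1, another neutrophil chemokine, had differences of 2.50 and 0.30, the NF-kB regulator NFKBIZ 1.48 and 0.35, and the kinase MAP3K8 1.39 and 0.28. In pair 1 the day 7 array was higher for 22 of 22 members, among all genes for 52.6%. In pair 2 it was higher for 12 of 22, among all genes for 51.7%, and the feedback genes TNFAIP3 and NFKBIA and the cytokine IL6 were at -0.19, -0.07 and -0.01. The median was 1.32 in pair 1 and 0.03 in pair 2, and over the 6 other normalizations and filters it ranged from 0.49 to 1.32 in pair 1, lowest in the authors' processed values, and from -0.05 to 0.12 in pair 2, where it had no settled sign.

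Metallothionein genes ran the same way in both pairs. MT1X had a log2 level of 9.73 on day 4 and 6.91 on day 7 in pair 1 and of 10.20 and 8.95 in pair 2, with both day 7 arrays below both day 4 arrays (mean log2 difference -2.04 ± 0.34, adjusted p = 0.0788 in limma, not called). MT2A was at 10.97 and 10.27 in pair 1 and at 11.70 and 10.63 in pair 2 (mean log2 difference -0.89 ± 0.18, adjusted p = 0.151 in limma). MT1F had differences of -0.99 and -0.47, and MT1E and MT1G, which were at most partly detected, had -0.67 and -0.90 and -0.38 and -0.66. Their sequences are alike, so a probe may read more than one of them. The zinc exporter SLC30A1, another MTF1 target, differed by -0.24 in both pairs, and MTF1 itself by 0.46 and 0.56. Of 7 members measured of 12 listed, 0 passed the test, 6 were lower in both pairs (22.9% of all genes) and 1 was higher, and the medians were -0.67 and -0.66. These medians kept their sign under the 6 other normalizations and filters, from -0.70 to -0.19 in pair 1 and from -0.66 to -0.19 in pair 2. The metal response elements shown above for MT1X and MT2A are a feature of the promoters, and their use was not measured.

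**Figure D3:**
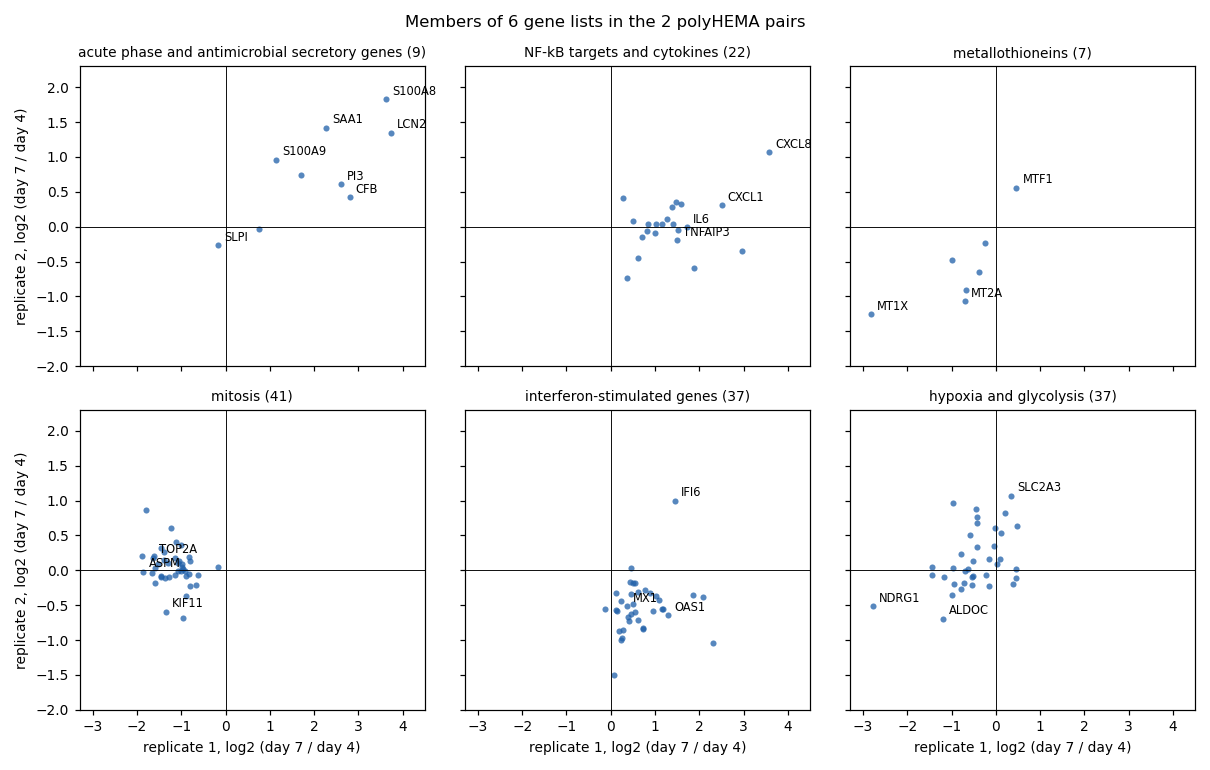
Log2 difference of PH7d from PH4d in replicate 1 (x axis) and replicate 2 (y axis) for the members of 6 gene lists, with the number measured in brackets. Acute phase genes lie to the upper right and metallothioneins to the lower left, whereas mitosis genes lie to the left along the horizontal axis and interferon-stimulated genes to the lower right.

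Genes of mitosis ran lower in pair 1 and had no shared direction in pair 2. Of 41 members, 41 were lower on day 7 in pair 1 and 19 in pair 2, with medians of -1.13 and 0.04, and 0 passed the test. With median scaling 41 were lower in pair 1 and 7 in pair 2. The kinesin KIF11 was lower in both pairs, by 1.34 and 0.59 on the log2 scale (levels of 8.95 and 7.60, and of 7.18 and 6.59; adjusted p = 0.142 in limma). TOP2A, the topoisomerase of dividing cells, was at 11.39 on day 4 and 9.74 on day 7 in pair 1 but at 9.15 and 9.33 in pair 2, and ASPM, a spindle protein, at 10.15 and 8.27 but at 7.59 and 7.56. On day 4 these 3 genes were thus higher in replicate 1 than in replicate 2. The list as a whole was less uneven, with median levels of 9.67 and 9.15 on day 4 and of 8.27 and 8.97 on day 7. Genes of DNA replication and S phase had medians of -0.51 in pair 1 and 0.09 in pair 2, with 33 of 35 lower in pair 1 and 10 of 35 in pair 2, or 5 with median scaling.

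Interferon-stimulated genes ran in opposite directions. In pair 1, 36 of 37 were higher on day 7, with a median of 0.51, whereas in pair 2, 35 of 37 were lower, with a median of -0.56. The antiviral GTPase MX1 was at 14.24 and 14.61 in pair 1 and at 14.56 and 14.05 in pair 2, and OAS1, a sensor of double-stranded RNA, at 10.02 and 11.32 and at 11.67 and 11.03. For IFIT1, which binds viral RNA, the pairs gave 0.49 and -0.48, a mean of 0.00. ISG15, a ubiquitin-like protein, was level in pair 2 (0.46 and 0.03). IFI6, an interferon-induced membrane protein, was higher in both pairs, at 13.25 and 14.70 in pair 1 and at 13.53 and 14.53 in pair 2 (mean log2 difference 1.23 ± 0.22, adjusted p = 0.112 in limma). None of the 37 passed the test. Over the 6 other normalizations and filters the medians stayed between 0.42 and 0.55 in pair 1 and between -0.57 and -0.43 in pair 2. The difference between pairs has no replicate of its own and was not tested.

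Genes of MHC class I and peptide loading were mostly higher on day 7 in pair 1, 14 of 16, and in 7 of 16 cases in pair 2, with medians of 0.82 and -0.10. HLA-B had levels of 11.22 and 14.14 in pair 1 and of 13.03 and 13.34 in pair 2, and HLA-F of 9.90 and 12.33 and of 12.07 and 12.45 (adjusted p = 0.433 and 0.350 in limma). HLA genes are alike in sequence and their probes may share signal. In both genes the day 4 array of replicate 1 was the lowest of the 4, and on day 7 the replicates lay within 1 log2 unit of each other.

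Hypoxia and glycolysis genes had medians of -0.51 in pair 1 and 0.04 in pair 2, and 28 of 37 were lower on day 7 in pair 1 against 16 of 37 in pair 2. NDRG1, a gene induced by low oxygen, was at 11.66 on day 4 and 8.89 on day 7 in pair 1 and at 11.20 and 10.68 in pair 2, and aldolase C (ALDOC) at 10.11 and 8.91 and at 10.14 and 9.44. The glucose transporter SLC2A3 ran the other way, with differences of 0.33 and 1.07. None passed the test.

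**Figure D4:**
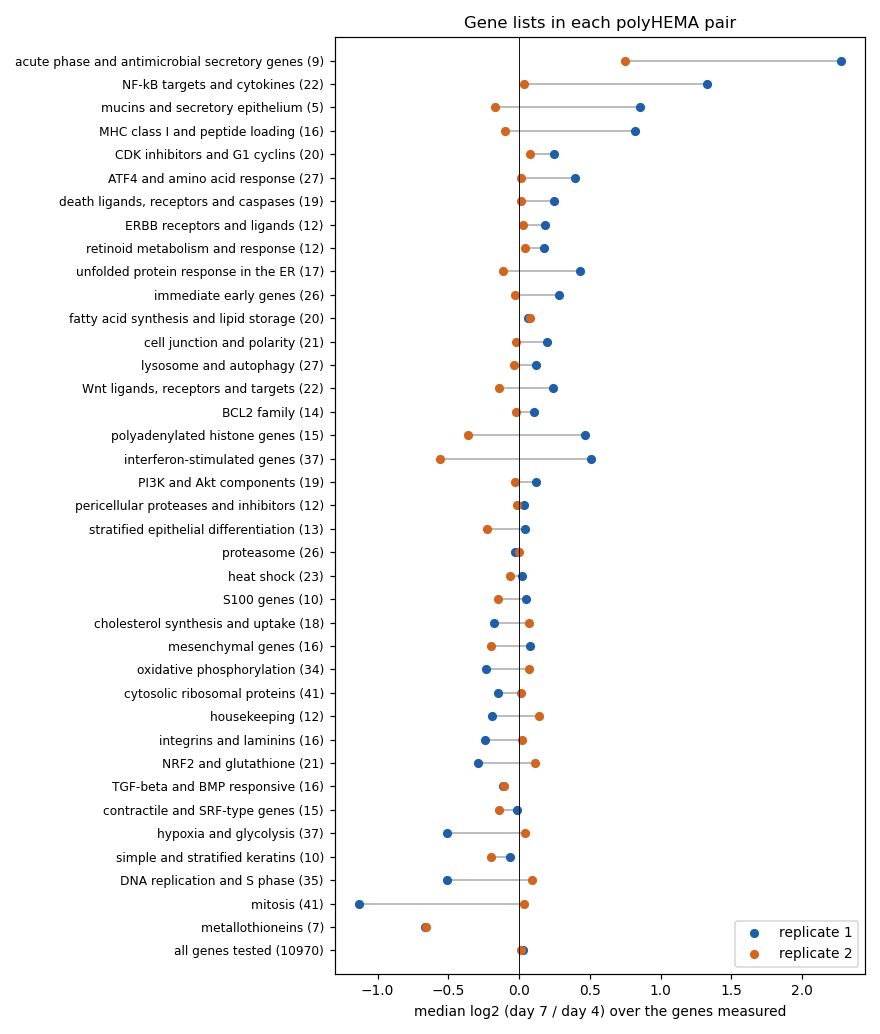
Median log2 difference of PH7d from PH4d over the measured members of each of 38 gene lists (number in brackets) and over all genes, in replicate 1 (blue) and replicate 2 (orange). Apart from acute phase genes and metallothioneins, the lists with a median over 0.5 from 0 in replicate 1 lie near 0 or on the other side in replicate 2.

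Housekeeping genes had medians of -0.19 and 0.14 over 12 members. The 26 proteasome genes had medians of -0.03 and 0.00, the 34 oxidative phosphorylation genes -0.23 and 0.07, the 41 cytosolic ribosomal proteins -0.15 and 0.01, and the 12 ERBB receptors and ligands 0.18 and 0.03. In none of these lists did a member pass the test.

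The same days in Matrigel (basement membrane extract set as a gel) share no arrays with polyHEMA, though the methods give Matrigel cultures less serum and a Dispase step before RNA isolation, which cannot be told apart from the gel. In limma 612 genes passed the test of MG7d against MG4d (5.58%). The test of the difference itself, polyHEMA minus Matrigel, called 490 of 10970 genes (4.47%), 143 with the higher day difference in polyHEMA (1.30%) and 347 with the lower one (3.16%). The largest 2 were NDRG1 and ALDOC. NDRG1 was 3.76 higher on day 7 in Matrigel on the log2 scale, at 7.65 and 11.40, and 1.64 lower in polyHEMA, a difference of -5.40 ± 0.56 (adjusted p = 0.000879 in limma). ALDOC was 3.16 higher in Matrigel, at 8.21 and 11.37, and 0.95 lower in polyHEMA (difference -4.11 ± 0.29, adjusted p = 0.000154 in limma). Of the 37 hypoxia and glycolysis genes, 6 were called with the lower day difference in polyHEMA and 0 with the higher.

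The acute phase list went the other way, with 4 of 9 called higher in polyHEMA (1.30% of all genes), namely S100A8, S100A9, PI3 and SAA1. The list was drawn up with earlier results of these arrays known. PI3 was 1.44 lower on day 7 in Matrigel, so that part of its difference came from there. S100A8 and SAA1 were not detected on either day in Matrigel, and neither were SAA4, PTPN20, TMEM45B, OR4K15 or DLX5. S100A8 aside, these genes had entered the test through PH7d alone, which favours a higher day difference in polyHEMA. LCN2 was detected on all 4 Matrigel arrays, at mean log2 levels of 8.04 on day 4 and 8.47 on day 7, and its difference of 2.11 ± 0.56 between the cultures missed the threshold (adjusted p = 0.0518 in limma). S100A9 was 1.44 lower on day 7 in Matrigel and 1.05 higher in polyHEMA (difference 2.48 ± 0.28, adjusted p = 0.00145 in limma). CXCL8 had a mean level of 11.62 and 11.05 in Matrigel, above every polyHEMA array, and its difference of 2.90 ± 0.63 was called (adjusted p = 0.0244 in limma). MT2A, lower in both polyHEMA pairs, was 0.64 higher on day 7 in Matrigel (difference -1.52 ± 0.26, adjusted p = 0.00909 in limma), and MT1F was called as well (-1.66 ± 0.28). MT1X, however, was lower on day 7 in Matrigel too (-0.41), and its difference was not called (-1.63 ± 0.48, adjusted p = 0.0750 in limma). CASP14, OLFML2A and SLC1A6 were higher on day 7 in Matrigel by 1.11, 0.54 and 1.91. None of them was detected there on day 4, so that these rises started at the background. Without the replicate term 3 genes were called, and leaving out 1 Matrigel array left 113 to 320, with the fewest without MG7d replicate 1.

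**Figure D5:**
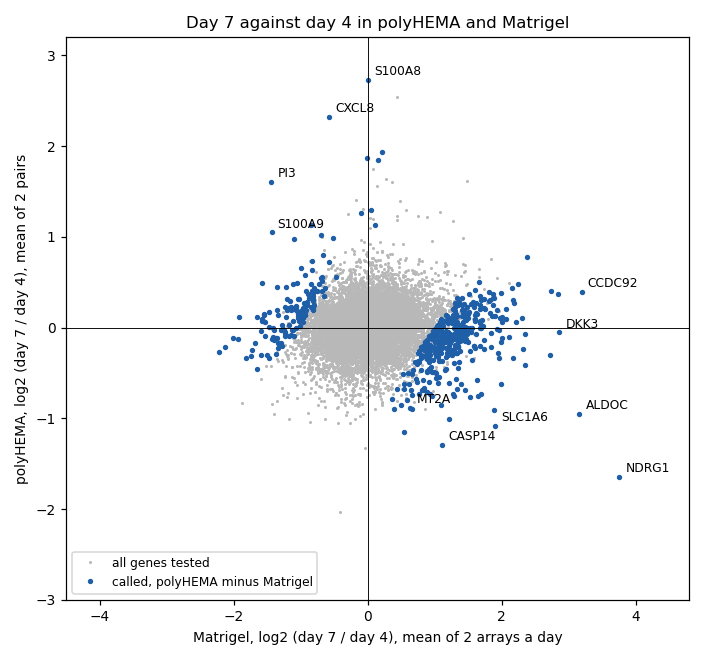
Each point is a gene, placed by its mean log2 difference of day 7 from day 4 in Matrigel (x axis) and in polyHEMA (y axis). The 490 genes called in the test of the difference (blue) lie mostly to the right, where day 7 was higher in Matrigel, with NDRG1 (3.76 and -1.64) farthest out.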

How the data were processed

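Total RNA of JIMT1 cultures was hybridized to Illumina HumanHT-12 v4 arrays. The authors deposited an intensity per probe, the mean bead signal with no background subtracted, and beside it a detection p-value against the negative controls of the array. The authors also deposited values near a log2 scale that they had processed with lumi, whose variance-stabilizing transformation departs from log2 at low signal (no version is given in the sources used here). Of their 47323 rows, 81.41% stood under another probe ID, so they were matched to the intensity table by their ranks over 12 arrays and used as an alternative only.

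The neqc function of limma 3.58.1 (R 4.3.3) corrected the background, added an offset of 16, normalized by quantiles and took log2. Probes detected at a p under 0.01 on both arrays of a group were kept (18308, of which 14562 had 1 symbol), and the brightest stood for its gene (10970 genes). Platform annotation gave 30113 probes 1 symbol, 8 several and 17202 none. A linear model with 6 group means and a replicate term for polyHEMA was fitted over 12 arrays, with variances moderated by eBayes (5 residual and 6.29 prior degrees of freedom). P-values were Benjamini-Hochberg adjusted over all genes, and calls needed a value under 0.05 with a 2-fold difference or more. The polyHEMA arrays were paired by replicate number because their replicate differences went together (r 0.87), which was known beforehand. Replicate differences also went together between polyHEMA and 2D7d (r 0.39 and 0.40) or MG7d (0.37 and 0.45), less so between MG4d and MG7d (0.16), and not between polyHEMA and MG4d or the xenografts (-0.07 to 0.11). The other groups were left unpaired. P-values measure the spread between these arrays, whose number limits the precision.

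Where no array of a day detected a gene, its fold is a lower bound, in which the dim arrays were set to their lowest detected signal (or kept as measured, if above it). Named were all called genes, then the largest differences of at least 2-fold with at least 1.5-fold in each pair up to 15 a direction, up to 4 genes a list that ran the same way in both pairs, standard markers of the lists, and the 10 largest calls of polyHEMA minus Matrigel. The arrays compared, the 38 lists and this rule were chosen with earlier results of these data known. The models were checked on simulated data, in which a gene had the same spread on all arrays and the replicate term was built in. That check could not show whether polyHEMA shares the spread of the other groups or whether the pairing holds. Other models, normalizations and filters, and leaving out arrays, were tried.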

Additional observations from a re-analysis of the deposited data

Results flagged for a closer look

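In 30 of the genes named by the rule or as markers of a list, the difference of day 7 from day 4 differed between polyHEMA and Matrigel by its own test in limma. Values are polyHEMA minus Matrigel on the log2 scale. It was lower in polyHEMA for 16, namely NDRG1 (-5.40), ALDOC (-4.11), the glucose transporter SLC2A10 (-3.02), the glutamate transporter SLC1A6 (-2.99), the Dickkopf family member DKK3 (-2.91), CCDC92 (-2.80), SPAG4 (-2.80), the monoamine transporter SLC29A4 (-2.76), CASP14 (-2.40), SRPX (-2.23), the mitochondrial protein BNIP3L (-2.05), OLFML2A (-1.69), MT1F (-1.66), MT2A (-1.52), desmoplakin (DSP, -1.40) and COL6A1 (-1.15). All 16 were higher on day 7 than on day 4 in Matrigel, by 0.36 to 3.76. In 12 of them most of the difference was that in Matrigel, the exceptions being CASP14, OLFML2A, MT2A and COL6A1. CASP14, CCDC92, DKK3, OLFML2A, SLC1A6 and SPAG4 were not detected in Matrigel on day 4, so that their rises there started at the background. SLC1A6 was not detected in polyHEMA on day 7 either. DKK3 was not detected on any polyHEMA array.

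It was higher in polyHEMA for 14, namely PI3 (3.04), CXCL8 (2.90), S100A8 (2.72), S100A9 (2.48), SAA4 (1.87), PTPN20 (1.72), SAA1 (1.69), NDUFS1 (1.5), the fatty acid binding protein FABP5 (1.44), TMEM45B (1.36), OR4K15 (1.24), S100P (1.22), the proteasome subunit PSMA2 (1.19) and DLX5 (1.02). In S100A9, FABP5, S100P and PSMA2, 4 of the 14, most of the difference was a lower day 7 in Matrigel. S100A8, SAA4, PTPN20, SAA1, TMEM45B, OR4K15 and DLX5 were not detected on any Matrigel array, so that for those 7 the value is set by polyHEMA alone. All of them but S100A8 had entered the test through PH7d alone, and for these 6 the filter favours a higher day difference in polyHEMA. The share of serum and of Dispase treatment in these differences was not tested.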

How the results depend on the processing

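The 11 calls of PH7d against PH4d became 0 with no replicate block (125 at an unadjusted p under 0.05), 1 with an array weight for polyHEMA, 4 with no filter on dim probes, 0 where only probes detected on all 4 polyHEMA arrays were kept (677 at an unadjusted p under 0.05), 1 with the authors' processed values, 6 with a replicate block for Matrigel added and 7 with one shared by the other groups added, both chosen after the data had been seen, and 0 to 142 with 1 replicate left out, where the lone pair was assumed to vary like the other groups. Of the 11, 5 were called from the 4 polyHEMA arrays alone, which called 9. The 490 calls of polyHEMA minus Matrigel became 3 with no replicate block, 259 with no background correction and 127 with the authors' values, and 113 to 361 with a replicate left out, of which the Matrigel arrays were left out after the data had been seen. Among the named genes, changes of sign were seen for BAX (0.0099 with the mean of the kept probes), DKK3 (0.026 with median scaling) and IFIT1 (-0.033 with median scaling), and, with a replicate left out, for CCDC92 (-0.41 to 1.19), DKK3 (-0.61 to 0.50), IFIT1 (-0.48 to 0.49), IL6 (-0.0099 to 1.72), MX1 (-0.51 to 0.37), NFKBIA (-0.068 to 0.83), OAS1 (-0.64 to 1.29), TNFAIP3 (-0.19 to 1.5) and TOP2A (-1.65 to 0.18), none of them called with both pairs. Of the other values for single named genes, 2108 kept direction and call, 74 lost a call and 56 gained one. All 74 were values of the 11 called genes, whereas most of the 2108 belonged to genes called in neither fit. Of list medians, 455 stayed within the spread of the pairs and 39 did not. Median scaling moved the median of all genes in pair 2 to 0.13, from 0.01. The causes were not tested. Differences of dim genes are limited by the signal over background.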

Other observations

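The basal keratin KRT5 had levels of 7.00 on day 4 and 6.12 on day 7 in pair 1 and of 8.47 and 7.73 in pair 2 (mean log2 difference -0.81 ± 0.18, adjusted p = 0.199 in limma), and CNFN, a protein of the cornified envelope, differed by -0.87 and -0.70. COL6A1, a collagen VI chain, differed by -0.87 and -0.71, and SRPX by -1.01 and -1.01. TGM2, a transglutaminase, ran the other way, with 2.00 and 0.42. None of these 5 genes passed the test of PH7d against PH4d. Over the same days in Matrigel KRT5 was lower as well (-1.35, adjusted p = 0.000783 in limma). There CNFN differed by 0.19, COL6A1 by 0.36, SRPX by 1.22 and TGM2 by 0.04. Of 13 measured genes of stratified epithelial differentiation, 5 were lower in both pairs and 1 was higher (22.9% and 27.4% of all genes).

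IGFBP5, which binds insulin-like growth factors, had levels of 6.68 and 9.18 in pair 1 and of 6.98 and 7.77 in pair 2 (mean log2 difference 1.64 ± 0.34, adjusted p = 0.155 in limma). CDKN2B-AS1, the antisense transcript at the CDKN2A and CDKN2B locus, was not detected on day 4 and was at 6.52 and 7.17 on day 7, at least 2.11-fold higher (adjusted p = 0.124 in limma). Of the 14 BCL2 family genes measured, 3 were higher in both pairs and 5 were lower (6 and 1 with median scaling), with medians of 0.10 and -0.02. Among those that promote cell death, BID differed by 1.05 and 0.40, PMAIP1 by 0.54 and 0.81 and BAD by 0.32 and 0.08. BAX (-0.35 and -0.07), BCL2L11 (-0.11 and -0.07), BBC3 (-0.08 and -0.06) and BOK (-0.06 and -0.02) lay below 0. The pairs ran opposite ways for BIK (0.99 and -0.0012), HRK (1.105 and -0.025), BMF (0.52 and -0.055) and BAK1 (-0.056 and 0.053). None of these genes passed the test. The inflammatory caspase CASP1 differed by 2.17 and 0.33 (adjusted p = 0.399 in limma). NDUFS1, a subunit of respiratory complex I, was not detected on day 4 and was at least 1.22-fold higher on day 7 (adjusted p = 0.0915 in limma), while the list median over 34 genes of oxidative phosphorylation was -0.23 and 0.07.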
